A study of Mus musculus with 44 samples.

Results

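The 37 genes described here belong to the interferon response and to class I antigen presentation. They were taken by gene symbol from a list that was chosen with earlier results of these data known. All 37 have a row in both deposited gene tables, which hold 22674 genes for the maturation window and 18274 genes for the ovulation window. RNA was sequenced from ovarian follicles of WT CD-1 mice, an outbred strain, with or without PFNA, the fluorinated compound perfluorononanoic acid. In the window of gonadotropin-dependent maturation, 11 control libraries labelled DMSO (the solvent) were compared with 10 libraries labelled PFNA. During ovulation, 12 control libraries labelled hCG (human chorionic gonadotropin, which triggers ovulation) were compared with 11 libraries labelled hCG+PFNA, so that follicles of both ovulation groups had received hCG. Dose, exposure time, age of the mice and whether a solvent accompanied hCG are not given in the sources used here. The labels do not say that libraries of a group came from separate animals, and p-values therefore measure only the spread between these libraries, which may be technical.

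Cells detect foreign or misplaced nucleic acid with sensors such as the RIG-I-like receptors, and the interferons they then release act through JAK kinases on STAT proteins, with STAT2 and IRF9 forming part of the complex ISGF3. ISGF3 binds a short DNA element, the interferon-stimulated response element (ISRE), and the gamma-activated sequence (GAS) serves the response to interferon gamma. The genes switched on in this way include antiviral effectors, immunity-related GTPases and the machinery that loads peptides onto class I molecules. Many of them also have a basal level in cells that have seen no interferon.

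Reference promoter sequence was used to show which members carry these elements. Of the 37 members, 30 had an entry in the RefSeq promoter table (GRCm38.p6), which covers 250 bases before to 50 bases after a gene's start. The ISRE was searched as 2 copies of GAAA with any 2 bases between them, on both strands, and was found in 16 of the 30 members (53.3%), against 3.99% of all 27025 genes in the table. The GAS element was searched as TTCNNNGAA, which is its own reverse complement and can overlap an ISRE, and was found in 9 of the 30 members (30%), against 9.55% of all genes. Both motifs were present in 4 members (Bst2, Eif2ak2, Gbp7 and Igtp), and neither was found within the window of 9 members, among them Trim25, Irf9, Irf3, Irf7 and Tap1. The following 150 bases upstream of the start are shown 5′ to 3′ on the gene's strand for Bst2, Rsad2, B2m and Irf1, whose levels changed in the ovulation window, and for Isg15, which has 3 overlapping ISRE matches and whose change did not pass the test. Capitals mark ISRE or GAS matches, and an ISRE on the other strand is shown as its reverse complement.
Bst2 (chr8:71537473-71537622, minus strand): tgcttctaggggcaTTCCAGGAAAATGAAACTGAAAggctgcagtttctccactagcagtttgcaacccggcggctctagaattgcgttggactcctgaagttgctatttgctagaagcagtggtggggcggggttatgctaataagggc
Rsad2 (chr12:26456453-26456602, minus strand): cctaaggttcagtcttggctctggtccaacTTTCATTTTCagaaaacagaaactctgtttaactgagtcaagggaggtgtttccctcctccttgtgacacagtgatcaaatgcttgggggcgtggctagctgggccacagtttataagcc
B2m (chr2:122147537-122147686, plus strand): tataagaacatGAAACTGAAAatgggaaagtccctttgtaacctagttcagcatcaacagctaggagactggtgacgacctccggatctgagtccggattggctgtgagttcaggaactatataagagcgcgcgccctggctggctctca
Isg15 (chr4:156200819-156200968, minus strand): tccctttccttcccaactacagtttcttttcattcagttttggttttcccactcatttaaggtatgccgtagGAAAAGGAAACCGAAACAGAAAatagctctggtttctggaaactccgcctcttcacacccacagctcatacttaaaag
Irf1 (chr11:53769864-53770013, plus strand): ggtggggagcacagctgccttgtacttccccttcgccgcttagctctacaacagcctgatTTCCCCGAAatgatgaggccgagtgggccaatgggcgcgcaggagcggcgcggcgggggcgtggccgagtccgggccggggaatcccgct
In Bst2 a GAS match begins 136 bases before the start and overlaps an ISRE match at 130 bases, and a further ISRE match follows at 124 bases. A match describes letters in the reference sequence, and no binding was measured.

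Maturation values were taken as TPM (transcript abundance scaled for length and to a fixed library total), so the depth behind them is unknown. Ovulation libraries held 10600931 to 19511531 estimated counts, given here as CPM (counts scaled by library size after TMM normalization). Levels were not compared across the windows. Summed levels of 8 granulosa cell markers were at least 14567 TPM in every maturation library and at least 9431 CPM in every ovulation library. Their medians were 44879 TPM in maturation controls and 29288 TPM with PFNA, where 6 of the 8 markers were lower, and 14517 and 12375 CPM in the ovulation window, where 5 were higher and 2 lower. Most of the sum was Inha in the maturation window (control mean 34970 TPM) and Inha and Inhba in the ovulation window (7352 and 6698 CPM). Inha and Inhba were the 2 lower markers there, and Fshr, Cyp19a1, Amh, Nr5a2 and Hsd17b1 the 5 higher ones. Maturation PFNA replicates 1 and 2 stood apart from the other PFNA libraries, with summed oocyte markers of 105 and 81.7 TPM inside or just under the control range of 102 to 160 TPM, while replicate 10 had 295 TPM and the other 7 PFNA libraries had at most 7.37 TPM. Summed levels of 8 macrophage markers had a median of 63 TPM in maturation controls (2.15 to 97.7) and 102 TPM with PFNA (41 to 241). In the ovulation window the medians were 31.6 CPM in controls (1.57 to 118) and 74.4 CPM with PFNA (4.04 to 168). Of these 8 markers, 2 of 5 tested were higher with PFNA in the maturation window and 5 of 8 in the ovulation window, and none was lower. Over all genes, 13.3% were higher and 16.1% lower in the maturation window, and 38.0% were higher and 35.2% lower in the ovulation window. In bulk follicle RNA, fewer cells of a type and less RNA per cell cannot be told apart.

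Few members moved in the maturation window, and none by 2-fold, where 0.963% of all genes were at least 2-fold higher and 3.81% at least 2-fold lower. Of 37 members, 27 reached a mean of 1 TPM and were tested with limma on log2(TPM + 1), and 5 of them passed an adjusted p of 0.05 (18.5%), where 29.4% of all 13712 genes tested passed. Irf7, Stat2 and Trim25 were lower, which is 11.1% of the tested members against 16.1% of all genes. Parp14 and B2m were higher, which is 7.41% of the members against 13.3% of all genes. For no member did every PFNA library lie above every control, beside 0.489% of all genes. The median log2 fold change of the 27 members was -0.05, and that of all genes tested was 0.02. Without PFNA replicates 1 and 2 the counts became 5 lower and 4 higher, and with median-ratio scaling 6 members were lower and 2 higher. The 10 members that were not tested were Ifih1, Dhx58, Gbp3 and 7 of the 13 antiviral effectors.

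More members moved in the ovulation window, in both directions. Of 37 members, 34 passed the filter on low counts and were tested with edgeR's quasi-likelihood test. Of these, 12 rose and 7 fell, so that 55.9% passed an adjusted p of 0.05, where 73.2% of all 13441 genes tested passed. The share that rose was 35.3% against 38.0% of all genes, and the share that fell was 20.6% against 35.2%. At least 2-fold rises were seen in 5 members (Dhx58, Ifit2, Rsad2, Bst2 and Gbp3), beside 18.1% of all genes, and at least 2-fold falls in 3 members (Trim25, Irf9 and Irf1), beside 9.02% of all genes. Every PFNA library lay above every control for Bst2 and B2m and below every control for Trim25 and Irf9, patterns found for 11.9% and 14.1% of all genes. The median log2 fold change of the 34 members was 0.34, and that of all genes tested was 0.04. Control libraries alone carried 27 members through the filter, Dhx58 and Igtp passed through the PFNA libraries alone, and Isg15, Ifit2, Ifit3, Mx2 and Rsad2 passed only with libraries of both groups.

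**Figure D1:**
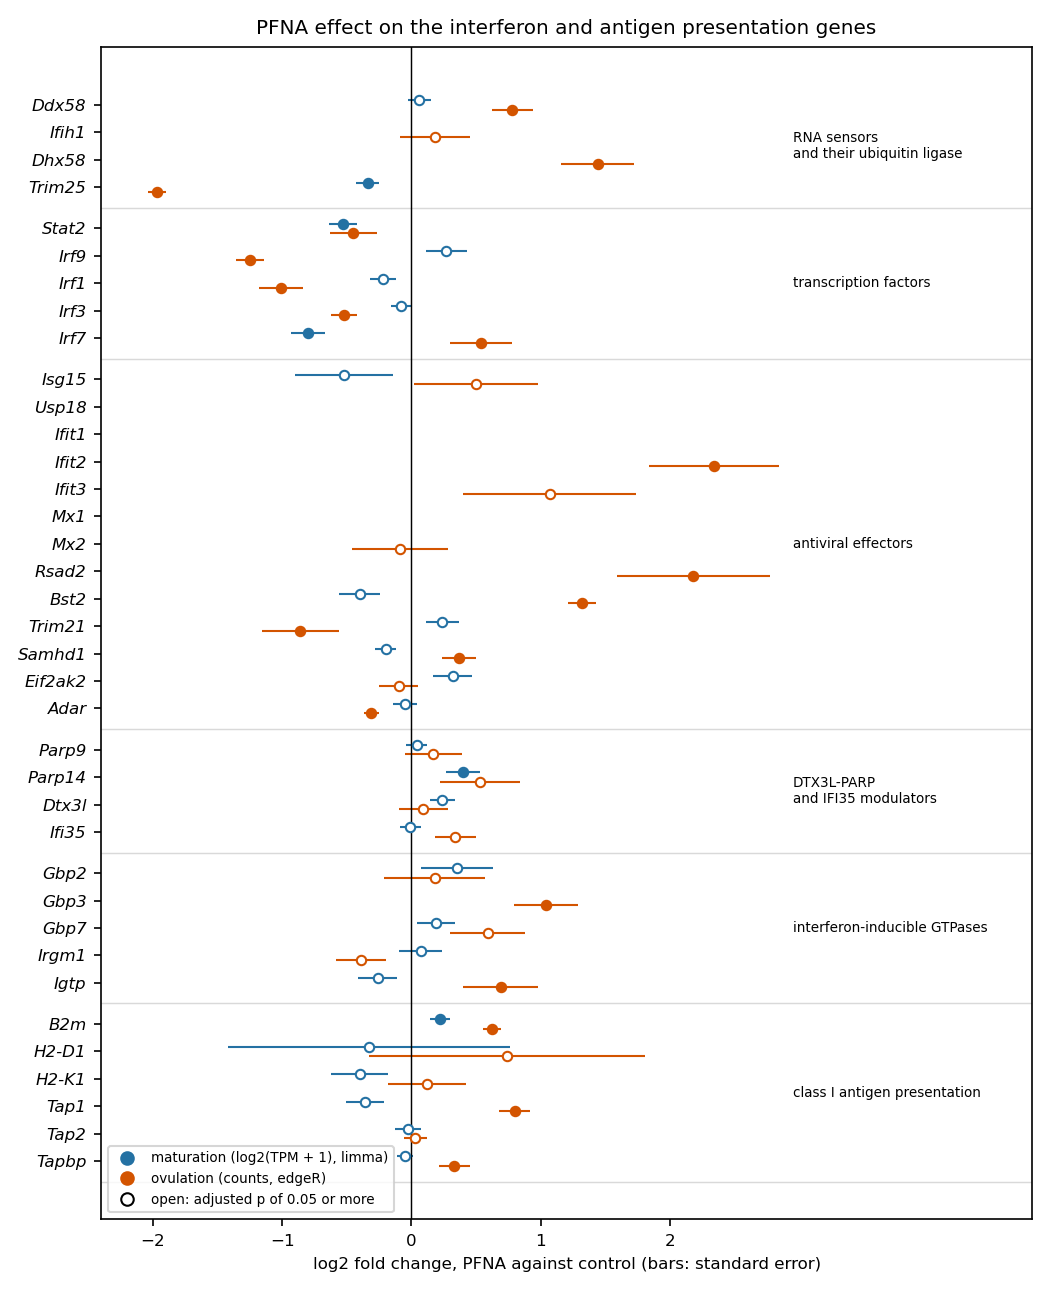
Log2 fold change of PFNA against control (x axis, bars show the standard error) for each member, grouped by role, in the maturation window (blue, log2(TPM + 1), limma) and the ovulation window (orange, counts, edgeR); open points did not pass an adjusted p of 0.05 and members without a point were not tested in that window. Trim25 sits furthest to the left at -1.97 and Ifit2 furthest to the right at 2.34, both in the ovulation window.

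The PFNA effect differed between the windows for 14 of the 27 members tested in both, with 8 more positive and 6 more negative in the ovulation window. This difference was tested with limma on log2(value + 1) within each table, and 67.7% of all 11215 genes passed the same test, 32.0% more positive and 35.6% more negative. Bst2 (difference 1.73, SE 0.19), Irf7 (1.18, SE 0.20) and Tap1 (1.11, SE 0.19) had the most positive differences. Trim25 (-1.61, SE 0.12), Irf9 (-1.40, SE 0.19) and Trim21 (-0.82, SE 0.22) had the most negative ones. Of the members called in both windows, B2m rose in both, Trim25 and Stat2 fell in both, and Irf7 fell in the maturation window and rose in the ovulation window. Over all genes, 24.8% were called in both windows.

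Of the 3 RNA sensors, Ddx58 and Dhx58 rose in the ovulation window and Ifih1 did not pass, while the ubiquitin ligase gene Trim25 fell. Of all genes, 38.0% rose and 35.2% fell in that window. Trim25 (chromosome 11, 88999376 to 89020293), the E3 ubiquitin ligase that modifies RIG-I and is itself interferon-inducible, had control values of 157 CPM at the lowest, 179 at the median and 223 at the highest, against 37.5, 48 and 51.6 CPM with PFNA. The groups lay far apart, with no overlap. The fitted log2 fold change was -1.97 (SE 0.07, adjusted p = 1.1e-17 by edgeR). During maturation, Trim25 ranged from 19.5 to 37.5 TPM in controls (median 32.7) and from 20.4 to 32.3 TPM with PFNA (median 23.7). These ranges overlapped, and the log2 fold change was -0.34 (SE 0.09, adjusted p = 0.0091 by limma).

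Dhx58, which encodes the sensor LGP2, had 0.159, 0.735 and 1.27 CPM in ovulation controls and 0.933, 2.05 and 2.85 CPM with PFNA, as the lowest, median and highest library. The ranges overlapped, with 9 of the 11 PFNA libraries beyond the highest control. This gave a log2 fold change of 1.44 (SE 0.28, adjusted p = 5.6e-05 by edgeR), from 2 to 17 counts per control library and 12 to 53 per PFNA library. Dhx58 passed the filter on low counts only through the PFNA libraries, the group in which it was higher. Ddx58, which encodes RIG-I, rose from a median of 5.78 CPM (3.44 to 8.19) to 9.58 CPM (6.95 to 15.1), a log2 fold change of 0.78 (SE 0.16, adjusted p = 0.00013 by edgeR). The third sensor of this family, Ifih1 (MDA5), had a log2 fold change of 0.18 (SE 0.27) and did not pass. In the maturation window Ddx58 had a log2 fold change of 0.06 (SE 0.09, adjusted p = 0.64 by limma), and Ifih1 and Dhx58 lay below the filter.

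All 5 transcription factors passed the test in the ovulation window, beside 73.2% of all genes, and 4 of them were lower (80%, beside 35.2%). Irf9 (chromosome 14, 55603571 to 55610030), the DNA-binding subunit of ISGF3, had 10.6, 15.1 and 18.6 CPM in controls and 4.81, 6.27 and 8.14 CPM with PFNA, as the lowest, median and highest library. No PFNA library reached the lowest control. The log2 fold change of Irf9 was -1.25 (SE 0.11, adjusted p = 2.4e-10 by edgeR). Irf1 (chromosome 11, 53770014 to 53778374), an activator of interferon and class I genes, ranged from 13.9 to 38.7 CPM in controls (median 26.2) and from 9.59 to 17.1 CPM with PFNA (median 11.9). The controls were widely spread, the groups overlapped, and 8 of 11 PFNA libraries lay below every control. Its log2 fold change was -1.01 (SE 0.17, adjusted p = 7.1e-06 by edgeR).

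Irf3, the factor that is activated downstream of the RNA sensors, fell from a median of 32.5 CPM (26.5 to 36.8) to 23.6 CPM (13.6 to 29.4), a log2 fold change of -0.52 (SE 0.10, adjusted p = 7.6e-05 by edgeR). Stat2, a subunit of ISGF3, fell from a median of 13.2 CPM (8.56 to 17.2) to 8.34 CPM (4.79 to 16.8), a log2 fold change of -0.45 (SE 0.18, adjusted p = 0.026 by edgeR). The ranges of Stat2 overlapped, and PFNA replicate 10 lay near the highest control. Irf7, the interferon-inducible amplifier of type I interferon production, was the single factor that rose, from a median of 1.79 CPM (1.12 to 4.25) to 2.66 CPM (1.54 to 4.81). The fitted log2 fold change was 0.54 (SE 0.24, adjusted p = 0.044 by edgeR), and the call was lost without the filter on low counts (adjusted p = 0.064).

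In maturing follicles Irf7 (chromosome 7, 141262706 to 141266481) had the largest change of any tested member, in the other direction. Its lowest, median and highest values were 9.78, 12.4 and 16.1 TPM in controls and 4.71, 6.86 and 9.73 TPM with PFNA. All 10 PFNA libraries lay below every control, a pattern found for 0.788% of all genes, although the highest PFNA library was just under the lowest control. This gave a log2 fold change of -0.80 (SE 0.13, adjusted p = 8.7e-05 by limma), and -0.91 without PFNA replicates 1 and 2. Stat2 (chromosome 10, 128270559 to 128292849) had 14.8, 20.2 and 24 TPM in controls and 9.74, 12.8 and 23.7 TPM with PFNA. PFNA replicates 1 and 2 were the highest of their group at 23.7 and 17.2 TPM, and the other 8 lay below every control. Its log2 fold change was -0.53 (SE 0.11, adjusted p = 0.0014 by limma), and -0.67 without these libraries. Irf9, Irf1 and Irf3 did not pass in this window, with log2 fold changes of 0.27, -0.22 and -0.08. Irf9 passed without PFNA replicates 1 and 2 (0.41, limma adjusted p = 0.034).

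**Figure D2:**
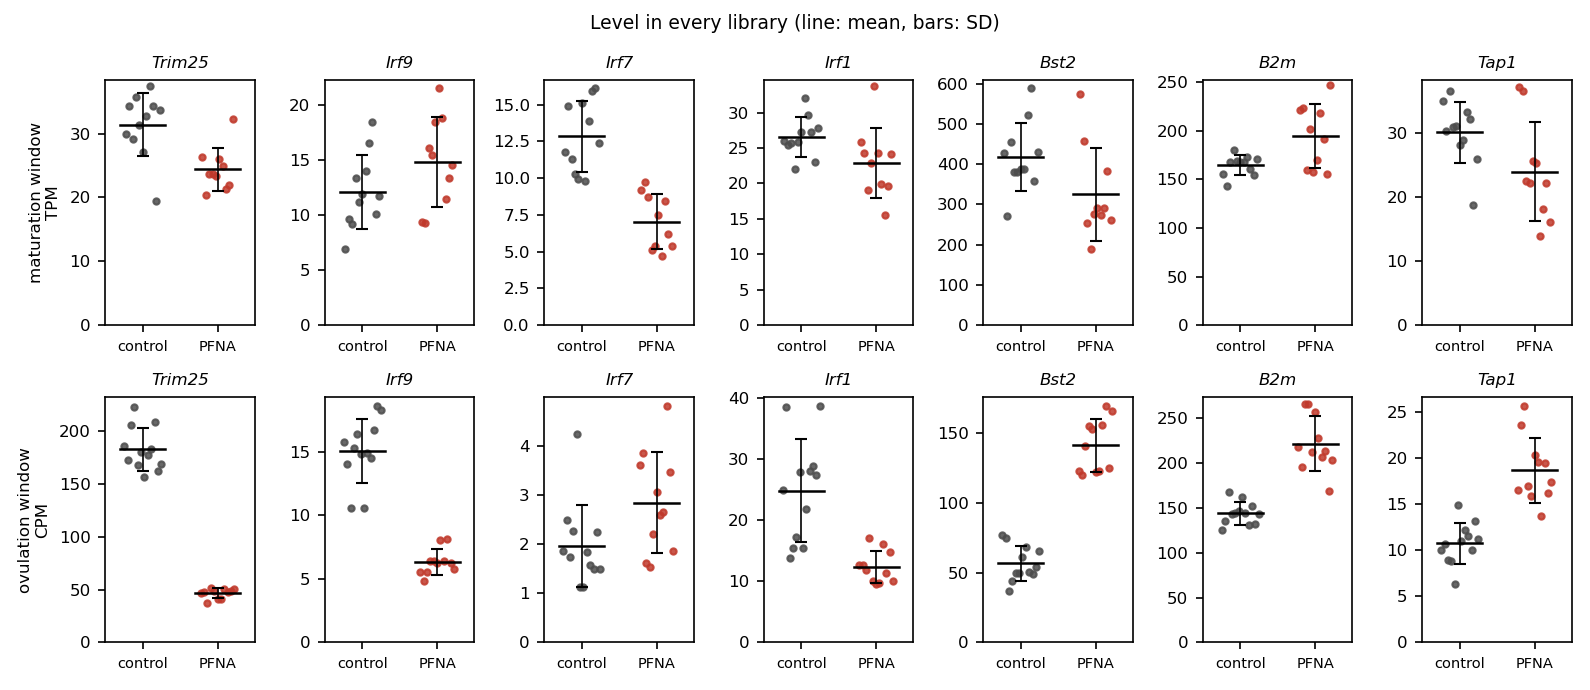
Level in every library (points; line, mean; bars, SD) of 7 members in the maturation window (top, TPM, 11 control and 10 PFNA libraries) and the ovulation window (bottom, CPM, 12 and 11 libraries). The groups separate fully for Irf7 in the maturation window and for Trim25, Irf9, Bst2 and B2m in the ovulation window.

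Of the 13 antiviral effectors, 10 were tested in the ovulation window. Of these, 4 rose (40%, beside 38.0% of all genes) and 2 fell (20%, beside 35.2%). In the maturation window 6 were tested and none passed, where 29.4% of all genes did. Bst2 (chromosome 8, 71534255 to 71537456), or tetherin, which holds budding enveloped viruses at the cell surface, was the effector whose groups parted fully. Its lowest, median and highest values were 37, 52.3 and 76.8 CPM in ovulation controls and 120, 141 and 169 CPM with PFNA. The fitted log2 fold change was 1.32 (SE 0.11, adjusted p = 3.6e-11 by edgeR). During maturation, Bst2 was at 272, 389 and 589 TPM in controls and at 188, 283 and 574 TPM with PFNA. These groups overlapped, since PFNA replicates 1 and 2 had 574 and 458 TPM. The log2 fold change of -0.40 (SE 0.16) did not pass (limma adjusted p = 0.06), and it passed at -0.59 without both libraries (limma adjusted p = 0.0012).

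Ifit2 and Rsad2 had the largest fitted rises among the 34 members that passed the filter in the ovulation window, from low levels. Ifit2 (chromosome 19, 34550694 to 34576419), of the family that binds foreign RNA and hinders its translation, had 0, 1.25 and 2.17 CPM in controls and 0.146, 3.94 and 13.7 CPM with PFNA, as the lowest, median and highest library. The groups overlapped through PFNA replicates 2 and 6, and the other 9 were higher than any control. This gave a log2 fold change of 2.34 (SE 0.50, adjusted p = 0.00018 by edgeR). Rsad2 (chromosome 12, 26442746 to 26456452), which encodes viperin, had 0.16, 0.848 and 5.15 CPM in controls and 0.293, 5.86 and 18.6 CPM with PFNA. The PFNA libraries spread from the level of the lowest controls to more than the highest, with 7 of 11 higher than any control. Its log2 fold change was 2.18 (SE 0.59, adjusted p = 0.0021 by edgeR).

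The rise of both genes was uneven between libraries. PFNA replicates 3, 4 and 10 had 13.7, 9.52 and 11.3 CPM of Ifit2 and 16.7, 18.6 and 14.9 CPM of Rsad2. PFNA replicate 6 had 0.146 CPM of Ifit2 and 0.293 CPM of Rsad2. Summed macrophage markers were 98, 168 and 79.7 CPM in replicates 3, 4 and 10 and 62.9 CPM in replicate 6. They were lowest in replicate 2 at 4.04 CPM, which had 1.9 CPM of Ifit2 and 0.594 CPM of Rsad2. Replicates 7 and 8, with sums of 85 and 119 CPM, had 2.32 and 2.66 CPM of Ifit2 and 2.53 and 5.86 CPM of Rsad2. The part of macrophage RNA in these changes was not tested.

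Other effectors at low counts did not pass or were not tested in the ovulation window. Isg15, the ubiquitin-like protein that is conjugated to targets after interferon, had a median of 0.607 CPM in controls (0.32 to 3.26) and 1.24 CPM with PFNA (0.0732 to 3.64), and its log2 fold change of 0.50 (SE 0.48) did not pass. Ifit3 (log2 fold change 1.07, SE 0.67) and Mx2 (-0.09, SE 0.37) did not pass either. Ifit1, Mx1 and Usp18, which removes ISG15 from its targets, were below the filter. Ifit1 and Mx1 had 6 of 11 PFNA libraries above every control each, with medians of 0.386 and 0.0624 CPM in controls and 1.65 and 0.635 CPM with PFNA. Their libraries held 0 to 17 and 0 to 9 counts in controls and 0 to 115 and 0 to 57 counts with PFNA, and both passed when no filter was used (edgeR adjusted p = 0.005 for Ifit1 and 0.0015 for Mx1). Usp18 did not (edgeR adjusted p = 0.14).

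Of the other effectors, Samhd1, which depletes deoxynucleotides, rose from a median of 20.7 to 26.7 CPM (log2 fold change 0.37, SE 0.13, adjusted p = 0.014 by edgeR). Trim21, a cytosolic antibody receptor and ubiquitin ligase, fell from 2.36 to 1.35 CPM (-0.86, SE 0.30, adjusted p = 0.013 by edgeR). Adar, which edits adenosine to inosine in double-stranded RNA, fell from 70.3 to 56 CPM (-0.31, SE 0.06, adjusted p = 0.00012 by edgeR). Groups overlapped for all 3 genes. Eif2ak2, the RNA-activated kinase PKR, did not pass (-0.10, SE 0.15, adjusted p = 0.53 by edgeR). Of the exonic bases of Adar, 16.8% are shared with the antisense gene Chrnb2 in GENCODE M21, and the use of strand in counting is not given in the sources used here.

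In maturing follicles 7 effectors were low in both groups. Ifit1, Ifit2, Ifit3, Mx1, Mx2, Rsad2 and Usp18 had medians under 1 TPM in controls and with PFNA. Mx1, a GTPase that blocks viral replication, was listed at 0 in 9 of 10 PFNA libraries and had a median of 0.152 TPM in controls. Without the filter on low values Mx1 was lower (log2 fold change -0.17, SE 0.04, adjusted p = 0.0036 by limma), on a scale that compresses such low values. PFNA replicate 10 had the highest values of Ifit2 (2.39 TPM) and Ifit3 (4 TPM) of the window, and it was the highest library for 17 of the 37 members. The summed macrophage markers of that library were also the highest, at 241 TPM, and their part in these values was not tested. The tested effectors had log2 fold changes from -0.52 (Isg15) to 0.32 (Eif2ak2), and none passed.

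**Figure D3:**
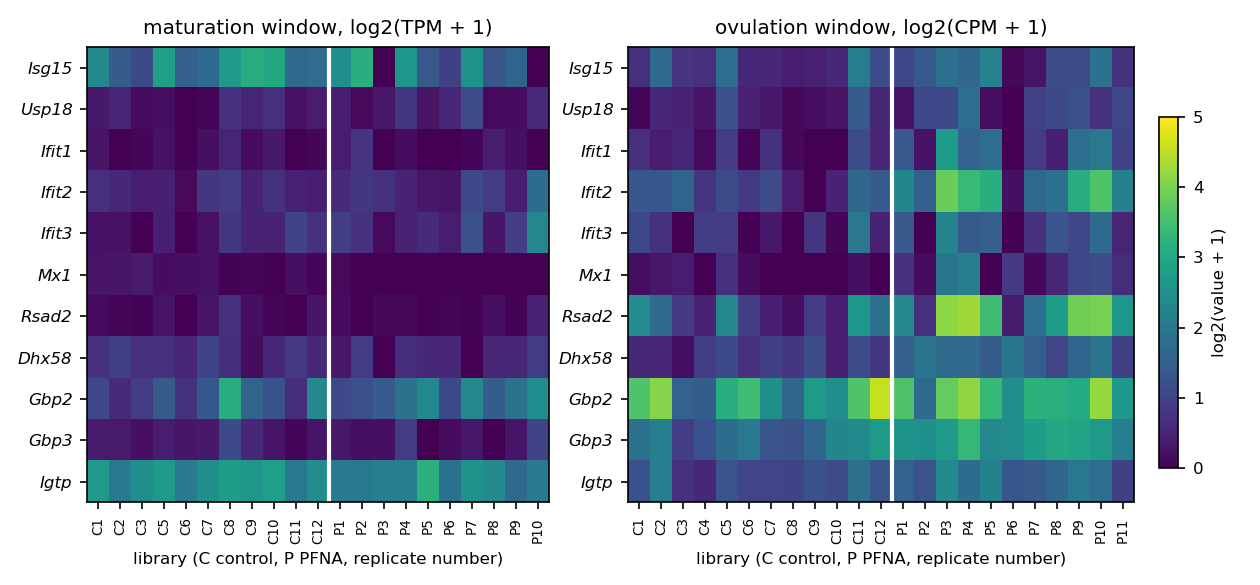
Colour shows log2(value + 1) of 11 inducible members (rows) in each library (columns; C, control; P, PFNA; the white line parts the groups), in TPM for the maturation window and CPM for the ovulation window. During ovulation, Ifit2 and Rsad2 are brightest in PFNA replicates 3, 4 and 10 and dark in replicate 6, while most maturation libraries are dark for both.

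Of the 4 genes grouped as DTX3L-PARP and IFI35 modulators, only Parp14 was called, and only in the maturation window (25%, beside 29.4% of all genes). Parp9 and Dtx3l, partners in a complex that modifies histones and other proteins, Parp14, an ADP-ribosyltransferase, and Ifi35 had log2 fold changes from 0.09 to 0.53 in the ovulation window, and none passed. Over all genes, 73.2% passed in that window. Parp14 rose in the maturation window from 0.482, 1.04 and 1.78 TPM in controls to 1.19, 1.6 and 2.81 TPM with PFNA, as the lowest, median and highest library. The groups overlapped, with 4 of 10 PFNA libraries above every control. The fitted log2 fold change was 0.40 (SE 0.13, adjusted p = 0.024 by limma). The fold change of Parp14 in the ovulation window was 0.53 (SE 0.31, adjusted p = 0.13 by edgeR), and the difference between windows was 0.00 (SE 0.29). Dtx3l passed in the maturation window with median-ratio scaling, with the replicate block and without PFNA replicates 1 and 2. Ifi35 passed in the ovulation window with median-ratio scaling and with DESeq2. Parp9 and Dtx3l share 9.4% and 8% of their exonic bases on opposite strands, so reads there could be split between them.

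The 5 interferon-inducible GTPases are of families that act against intracellular pathogens. In the ovulation window 2 rose (40%, beside 38.0% of all genes) and 3 did not pass. Gbp3 (chromosome 3, 142560026 to 142573209) had 0.873, 2.52 and 5.63 CPM in controls and 3.44, 5.42 and 9.09 CPM with PFNA, as the lowest, median and highest library. The ranges overlapped, with 4 of 11 PFNA libraries above every control. This gave a log2 fold change of 1.04 (SE 0.25, adjusted p = 0.00057 by edgeR). Igtp rose from a median of 1.29 CPM (0.492 to 3.39) to 2.13 CPM (0.933 to 4.28), with a log2 fold change of 0.69 (SE 0.29, adjusted p = 0.035 by edgeR), and the call was lost without PFNA replicate 5 (0.61, adjusted p = 0.064). Gbp7 (0.59, SE 0.29), Gbp2 (0.18, SE 0.39) and Irgm1 (-0.39, SE 0.19) did not pass. In the maturation window 4 of the 5 were tested, with log2 fold changes from -0.26 to 0.35, and none passed, where 29.4% of all genes did. Gbp genes lie as similar copies in a cluster on chromosome 3, and how the counting shared reads among them is not given in the sources used here.

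Of the 6 class I genes, 3 rose in the ovulation window (50%, beside 38.0% of all genes) and 3 did not pass. B2m (chromosome 2, 122147686 to 122153083), the light chain of every class I molecule, had 125, 143 and 167 CPM in controls and 169, 213 and 266 CPM with PFNA, as the lowest, median and highest library. The groups came close but did not overlap. Its log2 fold change was 0.62 (SE 0.07, adjusted p = 1.5e-08 by edgeR). Tap1 (chromosome 17, 34187553 to 34197225), a subunit of the transporter that carries peptides into the endoplasmic reticulum, had 6.31, 10.8 and 14.9 CPM in controls and 13.7, 17.4 and 25.6 CPM with PFNA. The ranges overlapped through PFNA replicate 8, with the other 10 PFNA libraries above every control. The fitted log2 fold change was 0.80 (SE 0.12, adjusted p = 2.1e-06 by edgeR). Tapbp, or tapasin, which bridges the transporter and class I molecules, rose by a log2 fold change of 0.33 (SE 0.12, adjusted p = 0.017 by edgeR). Tap2, the other transporter subunit, had a log2 fold change of 0.03 (SE 0.09, 95% interval -0.14 to 0.21) and did not pass. Of the exonic bases of Tapbp, 24.9% are shared with the antisense gene Gm19412, and 3.87% of those of Tap1 are shared with Psmb9.

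In maturing follicles B2m was the single class I member called (16.7% of the 6 tested, beside 29.4% of all genes). It had 143, 168 and 180 TPM in controls and 155, 197 and 247 TPM with PFNA, as the lowest, median and highest library, with 6 of 10 PFNA libraries higher than any control. This gave a log2 fold change of 0.22 (SE 0.08, adjusted p = 0.036 by limma), and the call was lost without PFNA replicates 1 and 2 (0.17, adjusted p = 0.097), without replicate 10 (0.18, adjusted p = 0.068) and with median-ratio scaling (0.19, adjusted p = 0.052). Tap1 had a log2 fold change of -0.36 (SE 0.15) that did not pass (limma adjusted p = 0.07). PFNA replicates 1 and 2 had the highest Tap1 values of their group, 37.2 and 36.6 TPM, and without them the fold change was -0.52 (limma adjusted p = 0.0021).

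The heavy chain genes H2-D1 and H2-K1 did not pass in either window, and H2-D1 fell into a low and a high set of libraries within every group. During maturation, 10 libraries (5 control and 5 PFNA) had at most 8.72 TPM of H2-D1 and 11 libraries (6 control and 5 PFNA) had at least 126 TPM, a gap of 14.4-fold with no library between. In the ovulation window 15 libraries (9 control and 6 PFNA) had at most 6.81 CPM and 8 libraries (3 control and 5 PFNA) had at least 80.9 CPM, a gap of 11.9-fold. The log2 fold change of H2-D1 was -0.33 (SE 1.09) in the maturation window and 0.74 (SE 1.07) in the ovulation window. The 95% intervals were wide, from -2.46 to 1.81 and from -1.35 to 2.83. H2-K1 had log2 fold changes of -0.40 (SE 0.22) and 0.12 (SE 0.30). Its widest gap between neighbouring libraries was 1.26-fold in the maturation window and 1.51-fold in the ovulation window. Even so, H2-K1 was higher where H2-D1 was high. In the ovulation window the 8 libraries high in H2-D1 had at least 119 CPM of H2-K1 and the other 15 at most 111 CPM. Among maturation controls the values were at least 186 TPM and at most 144 TPM. Maturation PFNA libraries overlapped, with 108 TPM in replicate 10 (high H2-D1) and 140 TPM in replicate 2 (low). B2m, with widest gaps of 1.11-fold and 1.15-fold, had no gap as wide as that of H2-D1. Class I heavy chain genes are polymorphic between mice and have near-identical copies, CD-1 is outbred, and the part of alleles or of reads shared among copies was not tested.

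**Figure D4:**
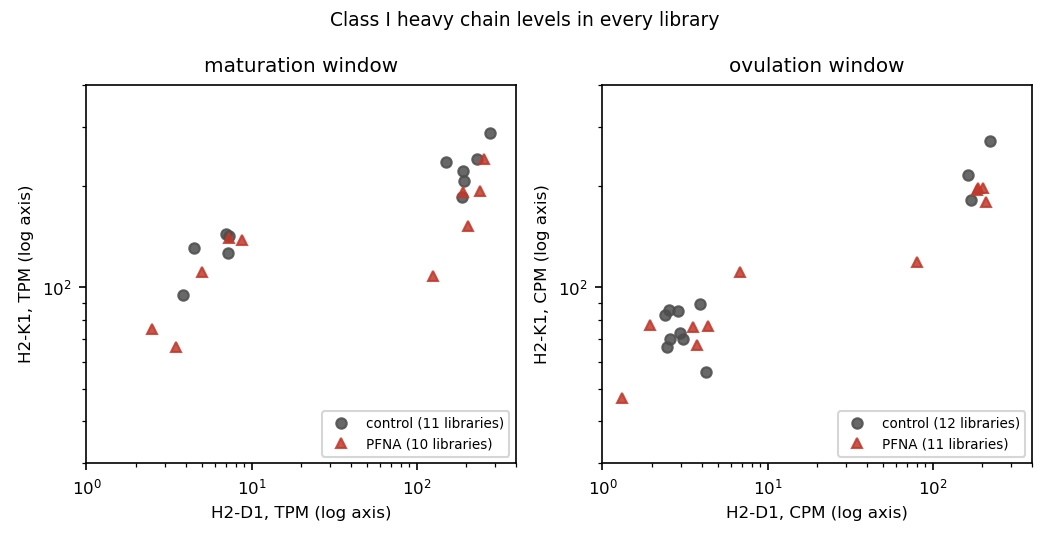
H2-D1 (x axis) against H2-K1 (y axis) in every library, on log axes, in TPM for the maturation window and CPM for the ovulation window; circles are control and triangles PFNA libraries. In both windows and both groups the libraries form a low and a high set along the H2-D1 axis.

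Other genes of the pathway, taken from lists of 108 genes outside the members, moved in both directions. Of 74 tested in the ovulation window, 36 rose (48.6%, against 38.0% of all genes) and 17 fell (23%, against 35.2%), and of 65 tested in the maturation window, 10 rose (15.4%, against 13.3%) and 12 fell (18.5%, against 16.1%). The interferon ligands gave no test, since none of 9 had a row in the maturation table and the 2 with a row in the ovulation table were below the filter. Of 26 other interferon-stimulated genes tested in the ovulation window, 16 were higher (61.5%) and 1 lower (3.85%), beside 38.0% and 35.2% of all genes. Their median log2 fold change was 0.71, and that of all genes tested was 0.04. These 26 were those of 39 genes with a row that passed the filter on low counts. Which group carried them through was not examined, for this list or for most of the other pathway genes. A low gene can pass through the PFNA libraries alone, which limits what these shares and the median show. In the maturation window this list had 2 higher and 2 lower of 19 (10.5% each), beside 13.3% and 16.1% of all genes. Ifitm2, which restricts viral entry, fell there by 0.59 on the log2 scale (SE 0.10, adjusted p = 0.00016 by limma).

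Of the proteasome, peptide-loading and class I or II genes, 16 were tested in each window. In the ovulation window 12 rose (75%, beside 38.0% of all genes), 1 fell and 3 did not pass. In the maturation window 8 fell (50%, beside 16.1% of all genes), none rose and 8 did not pass. Psmb9, an immunoproteasome subunit that lies beside Tap1, rose from a median of 0.52 CPM (0.16 to 0.937) to 3.56 CPM (1.77 to 5.88) in the ovulation window. Every PFNA library lay above every control, with a log2 fold change of 2.78 (SE 0.25, adjusted p = 3.3e-10 by edgeR). The control median lay under the filter's cutoff of 0.684 CPM. Psmb9 therefore passed the filter on low counts only through the PFNA libraries, the group in which it was higher. During maturation, Psmb9 was lower, with a median of 20.4 TPM (15.8 to 30.5) in controls and 11.3 TPM (5.32 to 22.2) with PFNA (log2 fold change -0.89, SE 0.18, adjusted p = 0.00074 by limma). The difference between windows was 2.51 (SE 0.22, adjusted p = 8.1e-13 by limma). Calr, the chaperone calreticulin of the peptide-loading complex, fell in the maturation window by 0.51 on the log2 scale (SE 0.08, adjusted p = 5.1e-05 by limma), and its 10 PFNA values did not overlap those of the controls. It rose by 0.26 in the ovulation window (SE 0.07, adjusted p = 0.0015 by edgeR). H2-M3, a class Ib heavy chain chosen after its values were seen, had a log2 fold change of -0.83 (SE 0.14) in the maturation window and 0.98 (SE 0.11) in the ovulation window, both called.

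The JAK-STAT list, which holds receptors, kinases and feedback inhibitors, had 3 higher (21.4%) and 7 lower (50%) of 14 tested in the ovulation window. Over all genes, 38.0% were higher and 35.2% lower. Socs3, an inhibitor of cytokine receptor signalling, fell in the ovulation window from a median of 42.3 CPM (26.8 to 59.3) to 5.57 CPM (3.15 to 11.4). No PFNA library reached the lowest control, and the log2 fold change was -2.92 (SE 0.19, adjusted p = 1.4e-12 by edgeR). In the maturation window Socs3 rose by 0.86 (SE 0.20, adjusted p = 0.0033 by limma). The list had 5 higher (35.7%, beside 13.3% of all genes) and 2 lower (14.3%, beside 16.1%) of 14 there. Socs1, chosen after its values were seen, fell in both windows, with log2 fold changes of -1.52 (SE 0.25) and -0.75 (SE 0.16).

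Of the remaining IRF factors, 1 rose (14.3%) and 4 fell (57.1%) of 7 tested in the ovulation window, where 38.0% and 35.2% of all genes did. In the maturation window 2 of 6 rose (33.3%, beside 13.3% of all genes). Irf2bpl, which encodes a ubiquitin ligase related to an IRF2-binding protein, fell from a median of 180 CPM (166 to 196) to 33.7 CPM (23.2 to 50.4) in the ovulation window, a log2 fold change of -2.33 (SE 0.09, adjusted p = 3.2e-17 by edgeR). Irf2bp2, an IRF2-binding corepressor, rose by 0.31 in the maturation window (SE 0.10, adjusted p = 0.018 by limma). The nucleic acid sensing list had 4 higher and 4 lower of 11 in the ovulation window (36.4% each, beside 38.0% and 35.2% of all genes). In the maturation window 1 of 10 was higher (10%, beside 13.3% of all genes). Traf3, an adaptor between RNA sensors and IRF3, fell by 0.81 in the ovulation window (SE 0.07, adjusted p = 2.8e-10 by edgeR), and its groups did not overlap. Rnf135, a ubiquitin ligase that acts on RIG-I as TRIM25 does, rose by 0.50 in the maturation window (SE 0.14, adjusted p = 0.0092 by limma).

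**Figure D5:**
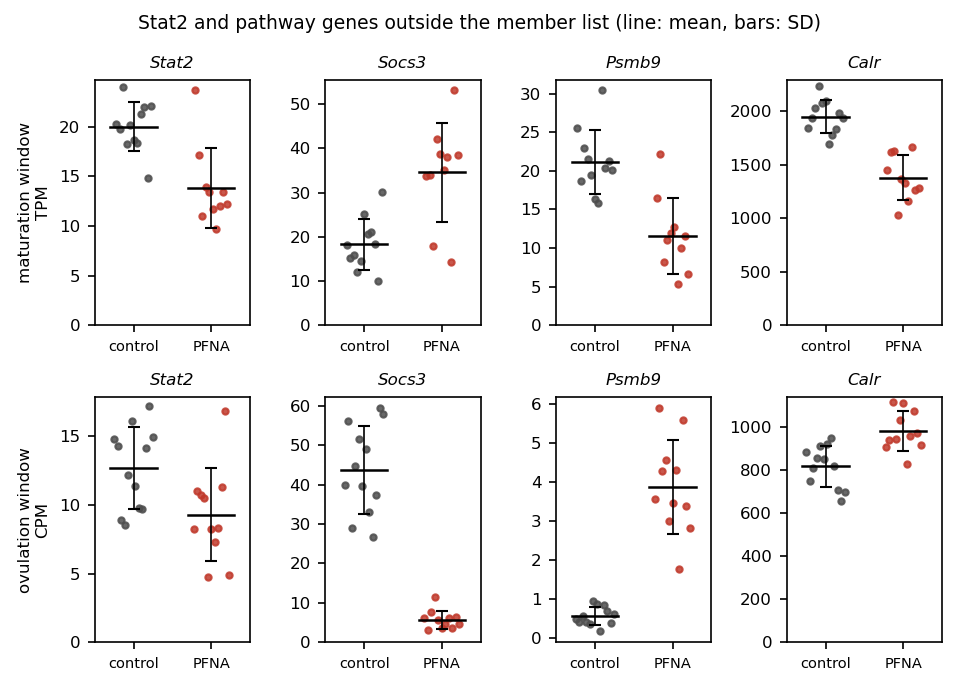
Level in every library (points; line, mean; bars, SD) of Stat2 and of 3 pathway genes outside the member list, in TPM for the maturation window (top) and CPM for the ovulation window (bottom). Stat2 is lower with PFNA in both windows, whereas Socs3, Psmb9 and Calr move in opposite directions between them.

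Markers of further cell types also differed beside these results. Over all genes, 38.0% were higher in the ovulation window and 16.1% were lower in the maturation window. Theca cell markers were higher for 3 of 4 genes in the ovulation window, with summed medians of 157 CPM in controls (60.6 to 268) and 335 CPM with PFNA (210 to 470). Oocyte markers were higher for 5 of 9 tested there, with summed medians of 87.1 CPM (61.3 to 269) and 209 CPM (13.9 to 417), and lower for 9 of 9 in the maturation window. Endothelial markers rose for 5 of 5 genes tested in the ovulation window, with summed medians of 89.4 CPM in controls (30 to 110) and 144 CPM with PFNA (39.1 to 319). Of 6 listed lymphocyte markers, Cd3e had a mean of 275 CPM in ovulation PFNA libraries and 0.192 CPM in their controls. Without Cd3e the summed lymphocyte markers reached at most 1.86 CPM in controls and 7.03 CPM with PFNA. During maturation, Cd3e and Cd79a were listed at 0 in most libraries of both groups. Summed leukocyte markers had medians of 4.34 and 5.97 TPM in the maturation window and 4.83 and 14.1 CPM in the ovulation window, for controls and PFNA. The part of these cells in the changes of interferon and class I genes was not tested.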

How the data were processed

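The authors deposited 1 gene table per window. The maturation values were scaled by the authors to TPM before they were deposited, as read from the values themselves: each of the 21 libraries sums to 1000000 and 80.2% of values are not whole (tolerance 0.01). The ovulation table deposited by the authors holds estimated counts, of which 9.82% were not whole, and these were rounded. Per the submitters' processing notes, Partek, Bowtie2 and HISAT2 were used, with no roles or versions. Strand and annotation are not given in the sources used here. Positions count from 1 on GRCm38 and come from the maturation table, whose starts equal those of GENCODE M21 for 99.4% of matched symbols. In the ovulation table this share was 37.2%, and 10 members had the same start, against 36 in the maturation table. Positions and shared exonic bases given beside ovulation values may therefore differ from the gene models counted there. The part of gene models in the difference between windows was not tested. Maturation control replicate 4 was not analysed here, and a column whose name differs by a letter was taken as replicate 6. No per-sample column was left unused. No library was a copy of another, since the closest pair of an ovulation group had a ratio of chi-square to its degrees of freedom of 7.54, and the highest correlation within a maturation group was 0.981.

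The maturation window was tested with limma 3.58.1 (trend, robust) on log2(TPM + 1) for genes averaging 1 TPM or more, a scale that understates the change of low genes. The ovulation window was tested with edgeR 4.0.16 in R 4.3.3 (filterByExpr, here 0.684 CPM in 11 libraries, TMM, robust quasi-likelihood test). The effect on log2(TMM-normalized CPM + 1) minus that on log2(TPM + 1) gave the difference between windows, each fitted with limma within its table. The Benjamini-Hochberg adjustment ran over all genes tested, and an adjusted p under 0.05 was called. Scripts were tested on simulated data. Alternatives changed scaling, pseudocount, filter, tool (DESeq2 1.42.0), replicate block and libraries. All 37 members are named, with full values for those called at 2-fold or more. Of the pathway lists, the gene with the smallest p per list and window is named, except where it is not reported here. The members, the lists and the alternatives were chosen with earlier results of these data known.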

Additional observations from a re-analysis of the deposited data

Results flagged for a closer look

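Within the 10 maturation PFNA libraries, 9 members had 1 library further from the others than Dixon's test allows at the 95% level. The 37 members were searched in this group, and chance gives about 1 in 20 groups. PFNA replicate 10 was the high library for 5 of them, with Trim25 at 32.3 TPM (next library 26.3), Ifit2 at 2.39 TPM (next 1.15), Ifit3 at 4 TPM (next 1.35), Rsad2 at 0.38 TPM (next 0.151) and Gbp7 at 8.75 TPM (next 4.35). PFNA replicate 1 was the high library for Stat2 at 23.7 TPM (next 17.2) and for Mx1 at 0.0875 TPM, where the other libraries were listed at 0. Igtp was at 8.18 TPM in PFNA replicate 5 (next 4.96), and Ifit1 was at 0.698 TPM in PFNA replicate 2 (next 0.317).

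The PFNA effect differed between the windows for 14 members, by limma's test of the difference. It was more positive in the ovulation window for Bst2 (1.73), Irf7 (1.18), Tap1 (1.11), Igtp (0.71), Ddx58 (0.64), Samhd1 (0.51), B2m (0.39) and Tapbp (0.34). It was more negative for Trim25 (-1.61), Irf9 (-1.40), Trim21 (-0.82), Irf1 (-0.68), Irf3 (-0.44) and Adar (-0.26), all on the log2 scale.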

How the results depend on the processing

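No member or named pathway gene changed direction in a call under any alternative run. In the maturation window 2 members were higher and 3 lower. Without PFNA libraries 1 and 2 the counts were 4 and 5, without PFNA replicate 10 they were 1 and 4, and with median-ratio size factors they were 2 and 6. In the ovulation window 10 to 15 members were higher and 6 to 8 lower under the alternatives, against 12 and 7. For the difference between windows, a minimum mean of 5 TPM and 5 CPM left 17 members tested, of which 5 were more positive in the ovulation window instead of 8, and 2334 genes in place of 3593. Leaving out maturation control replicate 6 changed no member's call.

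Replicate numbers did not pair the libraries. Correlations of deviations between libraries of the same number ran from -0.153 to 0.173 over 9 maturation pairs and from -0.216 to 0.086 over 11 ovulation pairs. With the replicate block, 2 members were higher and 4 lower in the maturation window and 10 higher and 6 lower in the ovulation window, and for the difference 8 were more positive and 5 more negative. Over all genes the maturation block left 1036 higher in place of 1824. Calls lost with the block were B2m and the pathway genes Irf2bp2 and Irf2bpl in the maturation window, Adar for the difference, and Stat2, Irf7 and Igtp in the ovulation window. Depth limits the inducible effectors: Ifit1, Mx1 and Usp18 had libraries without a count.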
